A study of Homo sapiens with 8 samples.

Results

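A set of 63 genes had higher counts in factory RNA-Seq, a method for nascent RNA, of IMR90 fibroblasts after 3 days of inflachromene (ICM) than either before treatment or after 6 days. These 63 genes, of the 28265 counted, were selected on the measured values: the CPM (a gene's count divided by its library's total and scaled alike in all libraries) had to reach 2 in both ICM 3 days libraries, and the lower of both had to be at least 1.5 times the highest CPM of the 2 young and the 2 ICM 6 days libraries. The rise from young and the fall to 6 days are therefore given as a description, without a test. IMR90 is a fibroblast strain grown from human fetal lung and widely used to study senescence, and ICM is a small molecule that binds the chromatin proteins HMGB1 and HMGB2. The study asked whether ICM brings such cells into a senescence-like state. The 8 libraries hold 2 of each group: young (low passage, no ICM), ICM 3 days and ICM 6 days (low passage, treated for 3 and 6 days), and MetaICM (low passage), whose treatment is not explained in the sources used here. All groups are wild-type IMR90, and the labels do not say whether the young cells received solvent. The MetaICM libraries had no part in the choice of the genes.

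Nascent RNA is transcript that has only just been made, so a gene's level in such a library follows its current transcription more closely than the stock of finished mRNA does. The counts analysed here are of exons, and the sample labels describe poly(A) selection, so the share of finished mRNA in them is not known. A stimulus commonly sets off genes whose transcription rises and then returns, because negative feedback, a spent signal or a second wave of regulators ends it. In fibroblasts, genes with this behaviour are known among immediate early genes, clock genes, hypoxia-responsive genes and matrix-degrading enzymes.

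The libraries held 12095123 to 23166405 counted pairs. The 11 fibroblast markers were all detected. Their summed level was 74284 and 70422 CPM in young, 36669 and 35960 CPM at 3 days, 26287 and 26043 CPM at 6 days and 52884 and 49453 CPM in MetaICM, so it was lower in all other libraries than in young and lowest at 6 days. The other marker sums were far smaller, at 7.07 to 17.4 CPM for epithelial, 133 to 231 CPM for endothelial (mostly TEK) and 4.96 to 22.7 CPM for leukocyte markers (mostly CD68). The leukocyte sum was 6.25 and 4.96 CPM in young, 22.7 and 18.9 CPM at 3 days, 21.7 and 18.0 CPM at 6 days and 14.0 and 14.6 CPM in MetaICM, so it did not fall back at 6 days as the 63 genes did. The part of either marker sum in the results was not tested. Replicates of a group correlated over genes with r of 0.987 to 0.996 on log2 CPM, a description over genes that are not independent. In these bulk samples, fewer cells of a type and less RNA per cell cannot be told apart. Nothing in the labels says that the libraries of a group came from separate cultures, so p-values measure the spread between these libraries only.

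**Figure D1:**
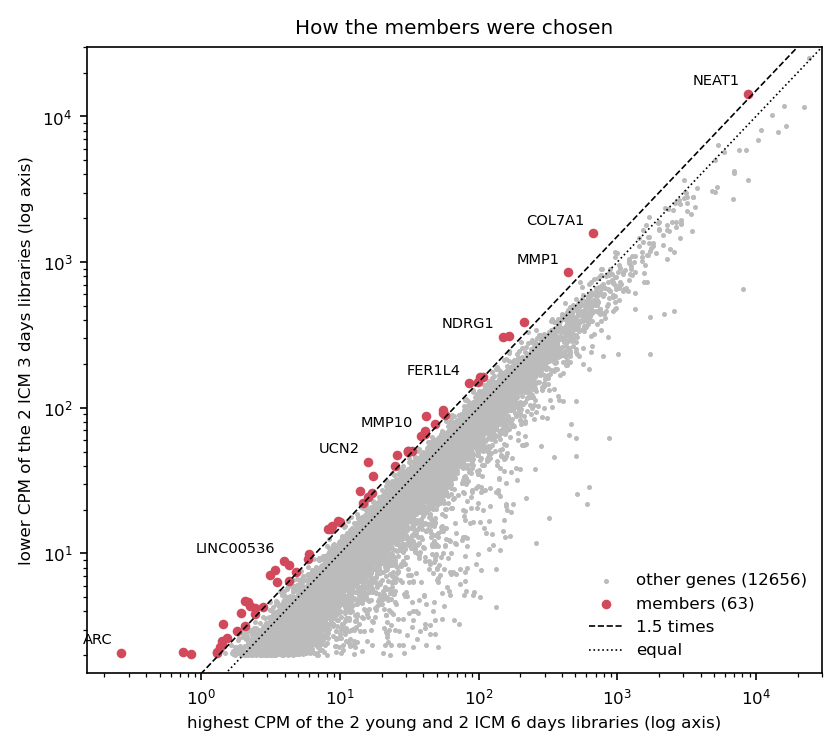
Each point is one of the 12719 genes with at least 2 CPM in both ICM 3 days libraries, with the highest CPM of the young and ICM 6 days libraries on the x axis and the lower ICM 3 days CPM on the y axis (both log axes). The 63 genes (red) lie on or above the dashed line of 1.5 times, and run from LAMB4 near 2 CPM to NEAT1 near 14312 CPM.

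The selected genes made up 0.495% of the 12719 genes with at least 2 CPM in both ICM 3 days libraries. The mirror-image rule, for genes lowered at 3 days alone, picked 53 genes. The margin of the 63 over the highest young or 6-day library was between 1.51 and 7.87 times (median 1.72), and 14 genes cleared a margin of 2. The mean CPM at 3 days was 2.37 times that of young in the median gene (range 1.61 to 93.8) and 2.12 times that of 6 days (range 1.56 to 12.5). Just inside the threshold stood ABCA7, KLF7 and SNORD156 with ratios of 1.51, 1.51 and 1.52; just outside stood MED26, RBM20 and APOL3 with ratios of 1.49999, 1.49 and 1.49. Depth behind the choice was uneven, since the lower 3-day count ranged from 30 (ARC) to 206095 (NEAT1) and was under 50 in 12 genes. By role, written down after the values were seen, the 63 comprise 3 genes of the response to oxygen and glucose, 5 of matrix and its proteases, 7 of adhesion and guidance, 9 of signalling, 5 transcription factors and clock genes, 6 of lipid, steroid and retinoid handling, 3 of cell death, p53 and interferon, 4 neuronal and muscle proteins, 2 olfactory receptors, 9 other protein-coding genes and 10 non-coding or unmatched transcripts.

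Both the 6-day and the young levels entered the rule as its ceiling, so the comparison of these groups is given gene by gene, and nothing about the set is drawn from it. The part of the rise still present at 6 days had a median of 11.4%, from 56.8% for HSD11B1 to below the starting level for BMF (-79.5%). In the fit of ICM 6 days against young, 61 of the 63 genes had enough counts, and 12 of them (19.7%) were higher and 6 (9.84%) lower at an adjusted p under 0.05 and an absolute log2 fold change (log2FC) over 0.6. Across the 15950 genes tested, 13.3% were higher and 17.2% lower by the same criteria. The members' share called, both directions together, was thus near that of all genes. Their median log2FC was 0.12, beside -0.0013 over all genes, and leaving out 1 library moved it, to 0.27 without young replicate 1, 0.052 without young replicate 2, 0.23 without ICM 6 days replicate 1 and 0.067 without ICM 6 days replicate 2. The genes called were MMP10, LINC00536, MMP1, HSD11B1, FER1L4, LOC100506175, OR1J1, NDRG1, PFKFB4, SERPINE2, ABCA7 and BHLHE40, which were above young, and BMF, MYOCD, CYP2S1, THCAT158, MIR2355 and KLF7, which were below it. Of these 18 calls, 14 held under every alternative that tested the gene, and those of BHLHE40, CYP2S1, MIR2355 and THCAT158 did not; without ICM 6 days replicate 2, and likewise with DESeq2, 3 of the 6 genes were still lower.

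In MetaICM against young, 58 of the genes were tested, of which 16 (27.6%) were lower, 7 (12.1%) higher and 35 not called. The young values entered the rule as part of its ceiling, and the MetaICM values did not enter it. Among all 15904 genes tested, 8.99% were lower and 7.41% higher. The median log2FC over the members was -0.11, beside -0.0011 over all genes, and it depended on 1 library, being -0.0042 without young replicate 1 and -0.20 without young replicate 2. Low in MetaICM against young were ABCA13, THCAT158, XIRP2, MAP3K8, MLF1, DHRS3, MIR2355, KLF7, BMF, DIPK2A, MIAT, MYOCD, SNORD156, APCDD1L, NEAT1 and ITGB3. Of these 23 calls, 14 held under every alternative that tested the gene; those of ABCA13, APCDD1L, BMF, CCDC24, LOC100506175, LPIN3, MIR2355, SNORD156 and XIRP2 did not, and leaving out either MetaICM library left 4 genes higher. Against ICM 3 days, 54 of 63 genes (85.7%) were lower and 1 (1.59%), ADGRG1, higher, with a median log2FC of -1.68 beside 0.01 over all genes; of the 16209 genes tested, 10.3% were lower and 13.1% higher. Since the genes were chosen for being high in those 3-day libraries, these counts describe the choice, and nothing about MetaICM is read from them. Of the 55 calls, those of CIART, GNG3, PRKCH and RASD1 were lost under some alternative, and without ICM 3 days replicate 2 AHNAK2 and MX2 were called higher besides ADGRG1.

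**Figure D2:**
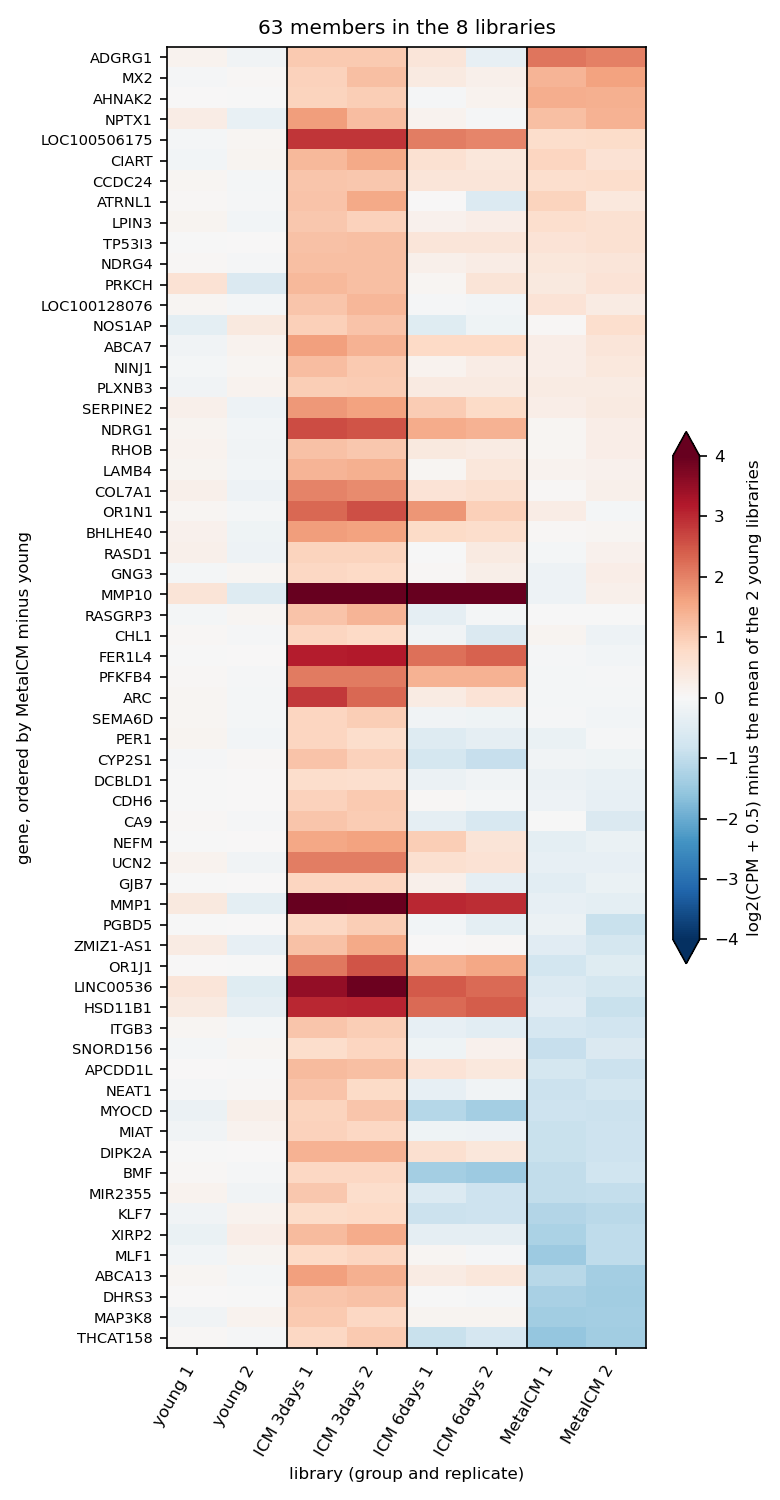
Each row is 1 of the 63 genes and each column 1 of the 8 libraries; colour gives log2(CPM + 0.5) minus the mean of the 2 young libraries, cut at 4 in both directions, with genes ordered by MetaICM minus young. The 3-day columns are red throughout because the genes were chosen there, and the MetaICM columns run from red at ADGRG1 (log2FC against young of 2.14) to blue at THCAT158 (-1.92).

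A run of 3 neighbouring genes on chromosome 3 were members together. COL7A1 encodes type VII collagen, the main component of anchoring fibrils; UCN2 encodes urocortin 2, a peptide of the corticotropin-releasing hormone family; and PFKFB4 encodes an enzyme that sets the level of fructose 2,6-bisphosphate and so of glycolysis. On the hg19 (GRCh37) coordinates of the count tables, COL7A1 lies at chr3:48601506-48632593, UCN2 at chr3:48599151-48601214 and PFKFB4 at chr3:48555117-48598562, all on the minus strand in the order of transcription, with gaps of 291 and 588 bases between them. COL7A1 had 496 and 368 CPM in young, 1694 and 1587 CPM at 3 days, 620.1 and 665 CPM at 6 days and 444 and 489 CPM in MetaICM. UCN2 went from 11.0 and 9.01 CPM in young to 42.7 and 42.8 CPM at 3 days, then to 16.0 and 15.1 CPM at 6 days, with 7.84 and 7.81 CPM in MetaICM. PFKFB4 measured 15.9 and 14.9, 65.8 and 66.0, 40.9 and 41.0 and 14.4 and 14.8 CPM in the same order. The 3-day means of the 3 genes were close in fold (3.80, 4.26 and 4.29 times the young mean). At 6 days PFKFB4 was called above young, with a log2FC of 1.36 ± 0.13 (SE), adjusted p = 2.54e-05, whereas COL7A1 (log2FC of 0.52 ± 0.15 (SE), adjusted p = 0.0185) and UCN2 (log2FC of 0.58 ± 0.17 (SE), adjusted p = 0.0199) stayed under the fold threshold. The calls of the latter pair depended on the setting: without young replicate 1 both COL7A1 (0.78) and UCN2 (0.77) were called higher, and UCN2 also with library totals (0.63), no filter (0.60) and thinned libraries (0.61). A difference among the 3 genes was not tested. Of the flanking genes on the same strand, UQCRC1, upstream of COL7A1, had 119.9 and 102 CPM in young and 179 and 155 CPM at 3 days. SHISA5, beyond PFKFB4, had 35.2 and 28.9 and 50.7 and 43.8 CPM. At 3 days both were above young but short of the fold threshold. UQCRC1 had a log2FC of 0.52 ± 0.14 (SE), adjusted p = 0.0164, and SHISA5 a log2FC of 0.48 ± 0.16 (SE), adjusted p = 0.0398. SHISA5 stood at 56.0 and 53.02 CPM at 6 days and was above young there (log2FC of 0.71 ± 0.14 (SE), adjusted p = 0.00239) and in MetaICM (log2FC of 0.90 ± 0.14 (SE), adjusted p = 0.00181), whereas UQCRC1 was called in neither. The counts were made without regard to strand and with pairs lying on several genes left out, so pairs from 1 transcript running over several of these genes and pairs from separate transcripts cannot be told apart.

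**Figure D3:**
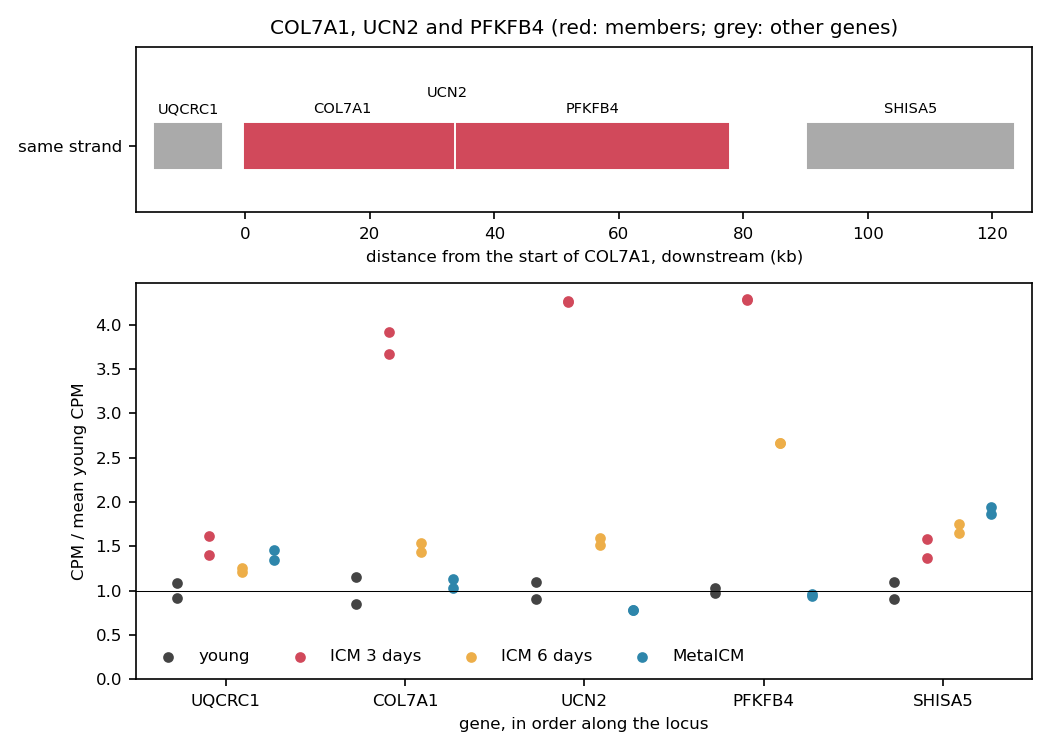
Upper panel: the locus by distance in kb from the start of COL7A1, with members in red and other genes in grey. Lower panel: CPM of each library divided by the mean young CPM of the same gene; the 3 members reach about 4 times at 3 days, whereas UQCRC1 and SHISA5 stay under 2 there.

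The response to oxygen and glucose supply was represented by NDRG1, PFKFB4 and CA9. NDRG1 is a stress-responsive gene induced by hypoxia, and CA9 encodes a cell-surface carbonic anhydrase that is a standard marker of hypoxia. NDRG1 measured 56.8 and 49.4 CPM in young, 325 and 307 CPM at 3 days, 149 and 139 CPM at 6 days and 56.4 and 63.5 CPM in MetaICM. It thus remained well above young at 6 days (log2FC of 1.39 ± 0.12 (SE), adjusted p = 1.15e-05), while MetaICM did not pass the test against young (log2FC of 0.15 ± 0.13 (SE), adjusted p = 0.421). CA9 was low throughout, with 2.16 and 1.98, 5.04 and 4.65, 1.52 and 1.16 and 2.06 and 1.21 CPM in the 4 groups, and its 6-day level did not pass the test against young (log2FC of -0.68 ± 0.32 (SE), adjusted p = 0.118). The list of hypoxia and glycolysis genes holds these 3 members. The rule had taken out list genes with a clear rise and fall, so the counts of the others partly follow from that choice. Of the 19 tested list genes outside the set, 16 were higher at 3 days than in young and 0 lower. The shares were 8.85% higher and 13.2% lower among all 15692 genes tested in that comparison. At 6 days against 3 days, 4 (ADM, SLC2A1, SLC2A3 and HK2) were higher and 0 lower, against 3.53% and 4.54% of all 15845 genes. Examples outside the set are ALDOC, a glycolytic aldolase (log2FC 3.12 at 3 days against young, -0.10 at 6 against 3 days), BNIP3, a mitophagy receptor (2.38 and -0.25), and PFKFB3, the sister enzyme of PFKFB4 (1.64 and -0.01). At 6 days, 17 of 22 tested genes of the whole list were above young and 0 below, beside 13.3% higher and 17.2% lower over all genes. In MetaICM the counts were 3 and 0, beside 7.41% and 8.99%. Against ICM 3 days, 15 of 22 were lower in MetaICM and 0 higher, beside 10.3% lower and 13.1% higher over all genes. The last count includes the 3 members, which were high at 3 days by choice.

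**Figure D4:**
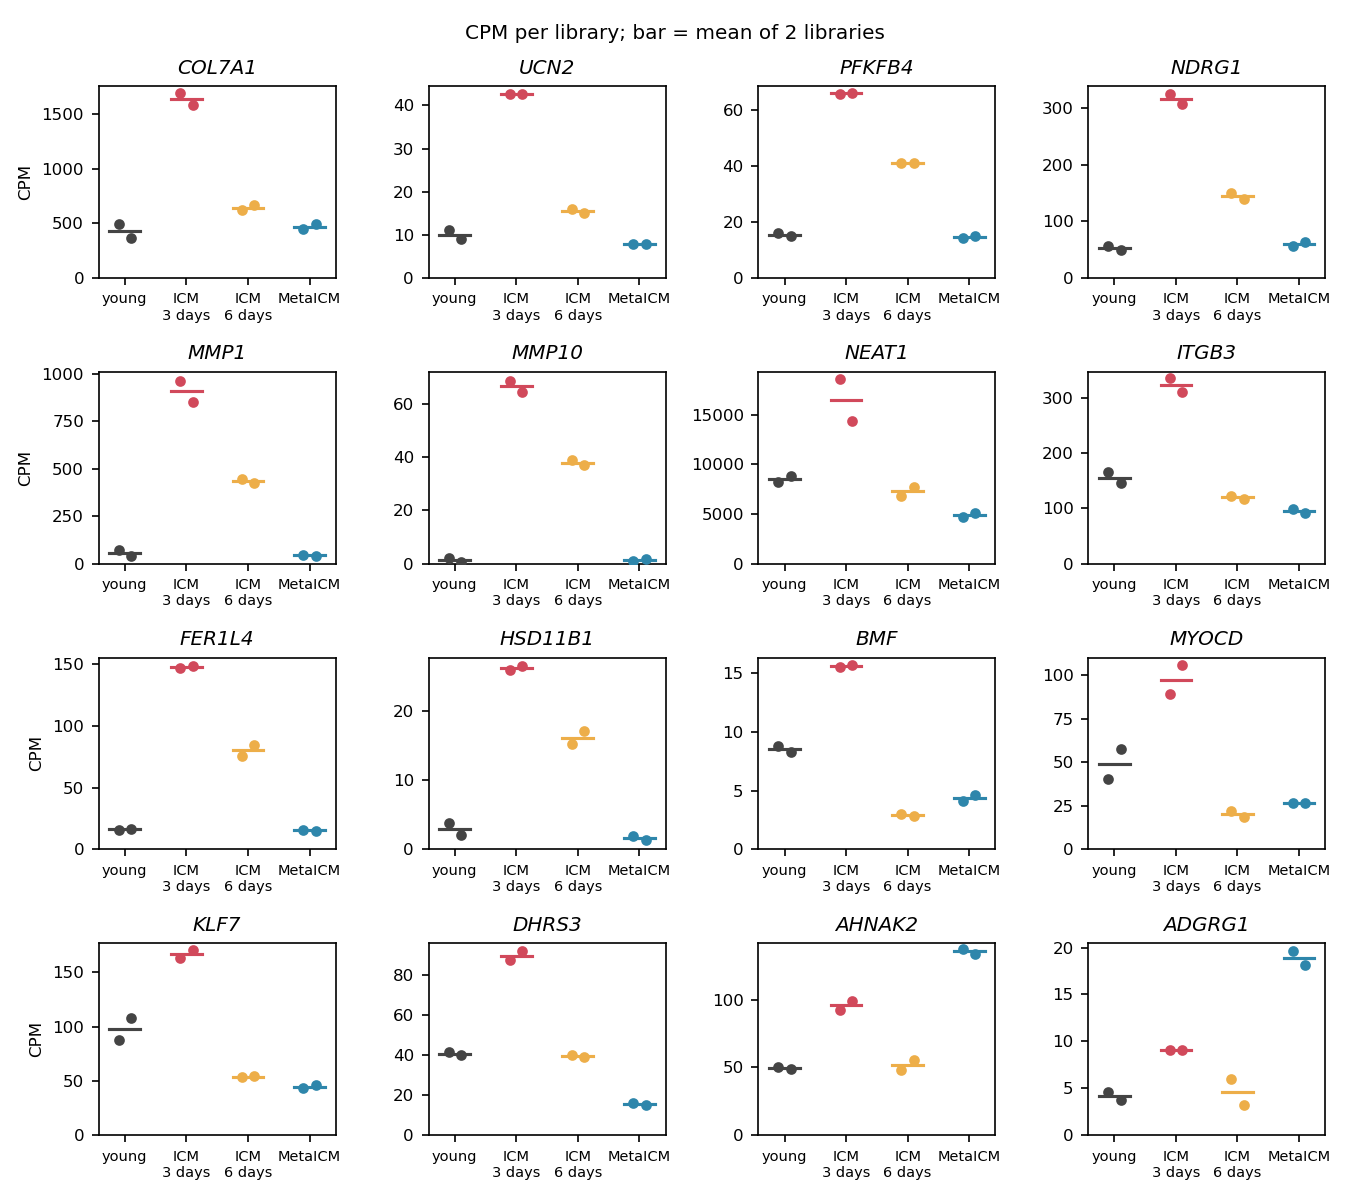
CPM per library (points) and mean of 2 libraries (bars) of 16 genes, each panel with its own axis from 0. The 3-day libraries stand above the young and 6-day ones in every panel by choice; AHNAK2 and ADGRG1 were higher still in MetaICM, at 134 to 137 and 18.1 to 19.6 CPM.

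The matrix-degrading enzymes MMP1 (interstitial collagenase) and MMP10 (stromelysin 2) reached 15.9 and 48.6 times the young mean at 3 days. The genes lie 9290 bases apart on the minus strand of chromosome 11. MMP1 went from 71.9 and 42.2 CPM in young to 965 and 854 CPM at 3 days and then stood at 445 and 426 CPM at 6 days; MetaICM had 44.2 and 42.2 CPM. MMP10 had 1.99 and 0.744, 68.5 and 64.3, 38.7 and 37.0 and 1.03 and 1.51 CPM. Both genes were transient only in part, with 44.4% and 56.1% of the rise left at 6 days; against young, MMP1 stayed higher with a log2FC of 2.87 ± 0.22 (SE), adjusted p = 3.46e-06 and MMP10 with a log2FC of 4.64 ± 0.27 (SE), adjusted p = 6.17e-07. In MetaICM neither passed the test against young (log2FC of -0.44 ± 0.21 (SE), adjusted p = 0.143 for MMP1, log2FC of -0.20 ± 0.45 (SE), adjusted p = 0.766 for MMP10). These values depended on single libraries. Leaving out 1 library gave a log2FC of -0.79 to 0.045 for MMP1, the lowest without young replicate 2, and of -0.69 to 0.79 for MMP10. MMP3 (stromelysin 1), the next gene in this cluster, was not a member: it had 15.4 and 8.68 CPM in young, 622 and 544 CPM at 3 days and 595 and 565 CPM at 6 days, so it held its level where MMP1 and MMP10 were lower; a difference between the genes was not tested. Of the 25 other list proteases and inhibitors tested at 3 days against young, 3 (MMP3, MMP12 and ADAMTS14) were higher and 10 lower. The shares over all genes were 8.85% and 13.2%. Of 24 tested at 6 against 3 days, 7 were higher and 1 lower, beside 3.53% and 4.54% over all genes. SERPINE2 (protease nexin 1), a serine protease inhibitor of the matrix, had 55.6 and 42.5, 164 and 151, 98.6 and 82.3 and 57.9 and 61.9 CPM, and it stayed above young at 6 days (log2FC of 0.83 ± 0.16 (SE), adjusted p = 0.00184). LAMB4, a laminin chain, was barely counted, with 2.03 and 2.15 CPM at 3 days.

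AP-1, the transcription factor formed by FOS and JUN proteins, is a common mediator of stress-induced transcription, so its site (TGACTCA or TGAGTCA, each the reverse complement of the other) was sought in the 250 bases before each gene's start. It was found before 6 of the 63 genes (9.52%), APCDD1L, CA9, UCN2, FER1L4 and MX2 among them. It was present before 3.55% of all 27262 distinct gene starts and before 2.50% of the 12553 starts of genes with at least 2 CPM in both 3-day libraries. A match is a string of letters and not a shown binding site, and the difference in shares was not tested. The windows of UCN2 and CA9, described above, are shown because they hold the site (in capitals), read from the GRCh37 sequence on the gene's strand: UCN2 (chr3:48601215-48601464, minus strand, in the gap behind COL7A1) and CA9 (chr9:35673675-35673924, plus strand).
UCN2: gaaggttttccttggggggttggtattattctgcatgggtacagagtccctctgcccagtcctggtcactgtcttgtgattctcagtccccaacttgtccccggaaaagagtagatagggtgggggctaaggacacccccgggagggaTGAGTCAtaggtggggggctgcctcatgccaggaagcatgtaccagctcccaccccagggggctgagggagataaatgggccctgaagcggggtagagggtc
CA9: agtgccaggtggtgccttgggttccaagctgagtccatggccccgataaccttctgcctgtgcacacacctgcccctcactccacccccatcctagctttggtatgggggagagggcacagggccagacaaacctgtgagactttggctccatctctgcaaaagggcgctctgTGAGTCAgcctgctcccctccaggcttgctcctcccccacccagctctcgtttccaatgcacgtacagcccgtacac

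The site lies 96 bases before the start of UCN2 and 71 before CA9. COL7A1, PFKFB4 and MMP10 have no exact match in their windows. Among genes of the AP-1 family outside the set, JUN was higher at 3 days (log2FC 0.85 against young) and changed little afterwards (0.19). FOSB did likewise (1.14 and 0.12). FOS had -0.52 and 0.37 in these comparisons, neither past both thresholds. Other genes of the family are not given here. These values are RNA counts, and whether AP-1 acts on genes of the set was not tested.

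In all, 3 clock genes were members. PER1 and BHLHE40 (DEC1) encode repressors of the CLOCK and BMAL1 transcription factors, which act on E-boxes, and CIART is a further repressor of the same pair. PER1 measured 16.0 and 13.9 CPM in young, 27.6 and 24.6 CPM at 3 days, 10.3 and 11.6 CPM at 6 days and 12.3 and 14.5 CPM in MetaICM. BHLHE40 went from 17.1 and 13.1 to 48.7 and 47.0 CPM and back to 26.0 and 24.5 CPM, with 15.5 and 15.8 CPM in MetaICM, and CIART from 1.31 and 1.57 to 4.24 and 5.07 and 2.45 and 2.17 CPM, with 2.99 and 2.37 CPM. At 6 days BHLHE40 remained higher than young (log2FC of 0.68 ± 0.17 (SE), adjusted p = 0.00773), while PER1 did not reach the fold threshold (log2FC of -0.50 ± 0.17 (SE), adjusted p = 0.0362) and CIART did not pass the test (log2FC of 0.65 ± 0.31 (SE), adjusted p = 0.117). Without young replicate 2 the log2FC of PER1 was -0.62, past the fold threshold, and that of BHLHE40 was 0.49, short of it. Of the 12 tested genes of the clock list outside the set, 0 were higher and 1 (NPAS2) lower at 3 days than in young. At 6 days against 3 days 0 were higher, 6 were not called and 6 were lower. Those lower were PER2 (log2FC -2.26), PER3 (-2.43), NR1D1 (-1.63), TEF (-1.79), NR1D2 (-0.76) and CRY2 (-0.64). PER1 is also on the list of glucocorticoid-responsive genes and BHLHE40 on that of TGF-beta targets. Of 10 other glucocorticoid-responsive genes tested, 3 were higher and 3 lower at 3 days, and 1 higher and 5 lower at 6 against 3 days. Of the other TGF-beta targets, 1 was higher and 5 lower at 3 days (18 tested), and 0 were higher and 10 lower at 6 against 3 days (17 tested). For the clock list and both of these lists, the shares over all genes were 8.85% higher and 13.2% lower at 3 days. At 6 against 3 days they were 3.53% and 4.54%.

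All 3 clock members carry the E-box CACGTG within 250 bases before their start, and their windows are shown for that reason with E-boxes in capitals: PER1 (chr17:8055723-8055972, minus strand), BHLHE40 (chr3:5020872-5021121, plus strand) and CIART (chr1:150254714-150254963, plus strand).
PER1: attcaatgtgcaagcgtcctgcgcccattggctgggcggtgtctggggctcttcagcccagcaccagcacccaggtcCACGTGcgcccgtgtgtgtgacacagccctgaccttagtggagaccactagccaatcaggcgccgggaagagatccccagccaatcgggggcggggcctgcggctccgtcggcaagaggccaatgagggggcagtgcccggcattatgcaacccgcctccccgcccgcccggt
BHLHE40: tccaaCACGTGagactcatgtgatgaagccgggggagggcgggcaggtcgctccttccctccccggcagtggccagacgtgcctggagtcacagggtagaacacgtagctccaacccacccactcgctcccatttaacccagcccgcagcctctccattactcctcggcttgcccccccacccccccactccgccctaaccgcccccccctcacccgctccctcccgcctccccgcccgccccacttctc
CIART: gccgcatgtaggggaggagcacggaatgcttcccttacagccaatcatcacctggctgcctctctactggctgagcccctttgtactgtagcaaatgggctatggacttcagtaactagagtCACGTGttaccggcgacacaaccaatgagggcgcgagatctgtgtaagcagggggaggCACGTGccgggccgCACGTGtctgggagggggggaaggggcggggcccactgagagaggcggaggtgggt

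The window of CIART holds 3 E-boxes and those of PER1 and BHLHE40 hold 1 each. Over the set, 7 genes (11.1%) had an E-box in the window, namely DCBLD1, SEMA6D, CIART, BHLHE40, NEFM, MIR2355 and PER1, beside 6.73% of all starts and 8.17% of those of genes at 2 CPM or more.

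On the way back 6 genes, KLF7 and MIR2355 included, went below young at 6 days. BMF, a BH3-only promoter of apoptosis, had 8.81 and 8.27 CPM in young, 15.5 and 15.7 CPM at 3 days and 3.05 and 2.80 CPM at 6 days, a log2FC of -1.59 ± 0.21 (SE), adjusted p = 0.000212 against young. MYOCD encodes myocardin, the coactivator of serum response factor that drives smooth muscle genes, and it had 40.5 and 57.4, 89.2 and 106, 21.8 and 18.5 and 26.6 and 26.6 CPM (log2FC of -1.32 ± 0.17 (SE), adjusted p = 0.000154 at 6 days). The rise of MYOCD at 3 days was not shared by its list. Of 15 other smooth muscle and contractile genes tested, 0 were higher and 12 lower at 3 days than in young. The shares over all genes were 8.85% and 13.2%. In MetaICM against 3 days 11 of 16 listed genes were higher and 1 lower, beside 13.1% and 10.3% over all genes. The lower one was MYOCD, chosen for its high 3-day values, so nothing is read from its fall. CYP2S1, a cytochrome P450, had 3.98 and 4.30, 9.80 and 8.26 and 2.34 and 1.96 CPM (log2FC of -0.99 ± 0.26 (SE), adjusted p = 0.0111). The long non-coding RNA THCAT158 had 3.52 and 3.31, 6.41 and 7.64 and 1.63 and 1.96 CPM (log2FC of -0.97 ± 0.28 (SE), adjusted p = 0.0169). In MetaICM, BMF (log2FC of -0.99 ± 0.19 (SE), adjusted p = 0.00568), MYOCD (log2FC of -0.89 ± 0.15 (SE), adjusted p = 0.00307) and THCAT158 (log2FC of -1.92 ± 0.30 (SE), adjusted p = 0.00201) were below young too, and CYP2S1 did not pass the test (log2FC of -0.21 ± 0.22 (SE), adjusted p = 0.502). THCAT158 overlaps the span of ITGB3 on the opposite strand, without shared exon bases. EFCAB13, 53 bases upstream of it on the opposite strand, had 24.5 and 33.5 CPM in young, 35.8 and 47.8 at 3 days and 22.4 and 22.9 at 6 days. Since counts ignored strand, pairs from THCAT158 and from transcripts of these genes crossing it cannot be told apart.

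KLF7, a Krüppel-like transcription factor, and MIR2355, which lies inside it on the same strand of chromosome 2 outside its exons, were both members. KLF7 had 88.0 and 108, 163 and 170.5, 53.1 and 54.6 and 43.3 and 46.2 CPM, and it was lower than young at 6 days (log2FC of -0.90 ± 0.12 (SE), adjusted p = 0.000255) and in MetaICM (log2FC of -1.15 ± 0.12 (SE), adjusted p = 0.000258). The MIR2355 row, an interval of 87 bases, had 2.78 and 2.15, 5.79 and 4.31, 1.52 and 1.16 and 0.980 and 1.04 CPM, and its differences from young were log2FC of -0.94 ± 0.32 (SE), adjusted p = 0.0385 at 6 days and log2FC of -1.33 ± 0.33 (SE), adjusted p = 0.0144 in MetaICM. Counts on this row are pairs on the hairpin's interval, which nascent KLF7 RNA also crosses, so they cannot be told apart from the transcript of KLF7 and do not measure the mature miRNA. The mature sequences (RefSeq, GRCh38.p14) are shown because the 5p and 3p arms have different seeds, in capitals.
hsa-miR-2355-5p: aUCCCCAGauacaauggacaa
hsa-miR-2355-3p: aUUGUCCUugcuguuuggagau

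The non-coding members included the most abundant gene of the set. NEAT1, the architectural RNA of paraspeckles, had 8176 and 8850 CPM in young, 18624 and 14312 CPM at 3 days, 6835 and 7717 CPM at 6 days and 4709 and 5086 CPM in MetaICM. Its share of all counts went from 0.818% and 0.885% to 1.86% and 1.43% and back to 0.684% and 0.772%; without it the set held 0.181% and 0.162% of counts in young, 0.572% and 0.549% at 3 days, and 0.255% and 0.252% at 6 days. NEAT1 did not pass the test against young at 6 days (log2FC of -0.27 ± 0.13 (SE), adjusted p = 0.118) and was lower in MetaICM (log2FC of -0.82 ± 0.15 (SE), adjusted p = 0.00417). MIAT, another nuclear non-coding RNA, had 25.3 and 31.1, 54.0 and 50.6, 25.0 and 24.2 and 15.0 and 15.6 CPM (log2FC of -0.90 ± 0.14 (SE), adjusted p = 0.00194 in MetaICM against young). FER1L4, a transcribed pseudogene, had 15.8 and 16.4, 147 and 149, 75.4 and 84.7 and 15.7 and 14.9 CPM and kept a log2FC of 2.27 ± 0.13 (SE), adjusted p = 6.35e-07 at 6 days. LINC00536 was almost silent in young (0.625 and 0.0827 CPM), reached 8.81 and 11.8 CPM at 3 days and kept 3.92 and 3.39 CPM at 6 days (log2FC of 3.12 ± 0.48 (SE), adjusted p = 0.000562). In the 2 MetaICM libraries together it had 1 count against 12 in young, a ratio of young to MetaICM of 18.0 (95% exact interval 2.66 to 769, counting error only). Its 357 counts at 3 days were high by choice, so no ratio to them is given. LOC100506175, with no match in the gene tables used here, lies within the span of RIPOR3 on the opposite strand. It had 1.48 and 1.74, 14.7 and 14.7, 8.27 and 7.62 and 2.89 and 3.02 CPM and was above young at 6 days (log2FC of 2.27 ± 0.24 (SE), adjusted p = 4.47e-05) and in MetaICM (log2FC of 0.86 ± 0.28 (SE), adjusted p = 0.0427). Counts ignored strand, so pairs of the overlapping transcripts cannot be told apart; RIPOR3 had 52.7 and 68.9 CPM in young, 194 and 176 CPM at 3 days, 220.1 and 223 CPM at 6 days and 77.9 and 82.1 CPM in MetaICM. The row of SNORD156, a small nucleolar RNA inside COL12A1 on the same strand, had 3.58 and 3.97, 6.50 and 7.22, 3.32 and 4.29 and 1.76 and 2.37 CPM. This interval of 74 bases lies outside the exons of COL12A1 but is crossed by its nascent RNA. Its counts therefore cannot be told apart from the host transcript and do not measure the mature small nucleolar RNA. The exon counts of COL12A1 were 8941 and 9130 CPM in young, 10162 and 10491 at 3 days and 12978 and 12089 at 6 days. ZMIZ1-AS1 and LOC100128076 complete the group, with 3.91 and 5.14 and 7.63 and 8.82 CPM at 3 days.

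Immediate early, p53 and interferon genes each contributed 1 or 2 members. ARC, an activity-regulated gene, had the largest margin of the set but few counts: 0.0568 and 0 CPM in young, 3.25 and 2.08 CPM at 3 days, 0.163 and 0.265 CPM at 6 days and 0 in both MetaICM libraries. It was not tested against young, where it had 1 count in all. RHOB, a small GTPase, had 86.5 and 70.0, 176 and 164, 103 and 97.2 and 82.9 and 92.7 CPM, and neither 6 days (log2FC of 0.30 ± 0.13 (SE), adjusted p = 0.0914) nor MetaICM (log2FC of 0.13 ± 0.13 (SE), adjusted p = 0.483) passed the test against young. Of 35 other immediate early genes tested at 3 days, 9 were higher and 3 lower than young, and of 34 tested at 6 against 3 days, 2 were higher and 9 lower. Over all genes the shares were 8.85% higher and 13.2% lower at 3 days, and 3.53% and 4.54% at 6 against 3 days. The same shares apply to the p53 and interferon counts that follow for these 2 comparisons. TP53I3, a quinone reductase that p53 induces, had 21.7 and 22.2, 50.1 and 51.6, 30.7 and 31.0 and 32.5 and 33.9 CPM. It was the only one of 27 listed p53 targets in the set: of the other 26, 17 were higher and 1 lower at 3 days, and at 6 against 3 days 0 were higher and 1 (BBC3, log2FC -0.84) lower, so that CDKN1A, for example, had a log2FC of 2.63 at 3 days and a further 0.14 by 6 days. MX2, an interferon-induced GTPase, had 0.909 and 0.992 CPM in young, 2.26 and 2.85 at 3 days, 1.36 and 1.16 at 6 days and 3.18 and 3.88 in MetaICM. Of 20 other interferon genes tested, 5 were higher and 1 lower at 3 days, and 0 higher and 2 lower at 6 against 3 days. In MetaICM MX2 was higher than young (log2FC of 1.87 ± 0.31 (SE), adjusted p = 0.00256). So were 11 of the 23 tested genes of the interferon list, MX2 included, with 0 lower, beside 7.41% higher and 8.99% lower over all genes.

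**Figure D5:**
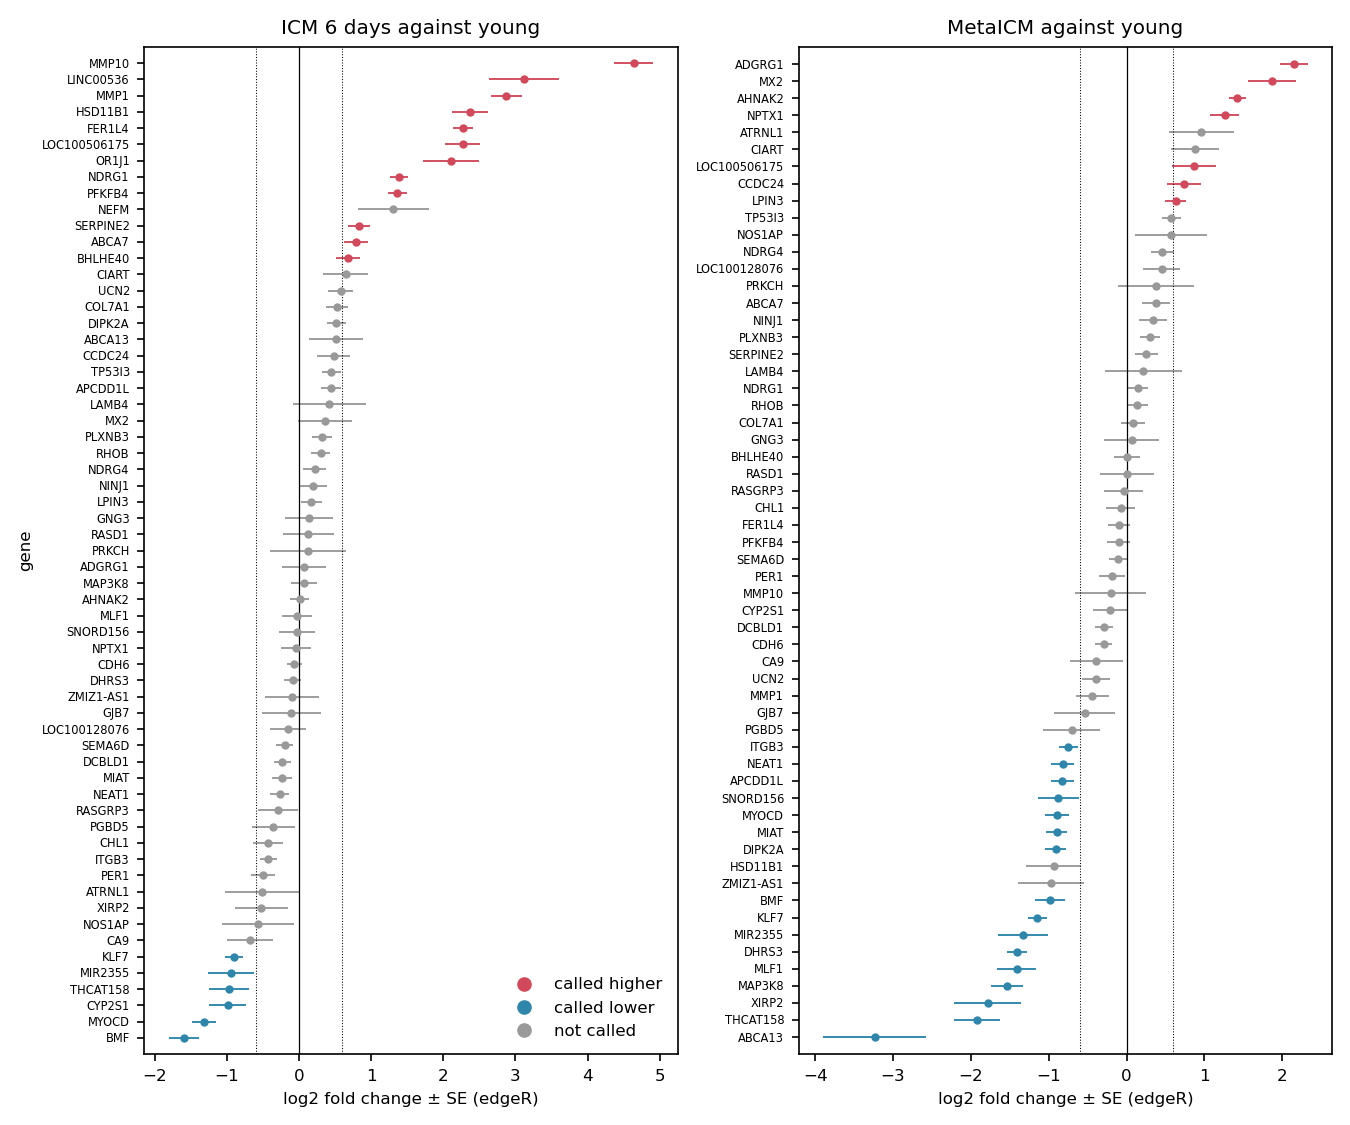
log2FC ± SE (edgeR) of ICM 6 days against young (left, 61 genes) and of MetaICM against young (right, 58 genes), sorted by value, with called genes in red (higher) or blue (lower) and dotted lines at 0.6 and -0.6. On the left the calls run from MMP10 at 4.64 to BMF at -1.59, on the right from ADGRG1 at 2.14 to ABCA13 at -3.24.

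Of the 7 genes of adhesion and guidance, 0 were called at 6 days against young, beside 13.3% higher and 17.2% lower over all genes. ITGB3 (integrin beta 3) had 165 and 146, 335 and 310.3, 123 and 117 and 98.2 and 90.8 CPM; it was lower in MetaICM (log2FC of -0.75 ± 0.12 (SE), adjusted p = 0.00214) and fell short of the fold threshold at 6 days (log2FC of -0.43 ± 0.12 (SE), adjusted p = 0.0142). CDH6 (cadherin 6) had 208 and 208, 391 and 429, 213 and 197 and 179 and 166 CPM, and SEMA6D, a semaphorin, 55.2 and 50.3, 96.2 and 105, 47.8 and 47.1 and 50.5 and 48.9 CPM. The 6-day differences spanned -0.43 (CHL1, an adhesion molecule of the L1 family) to 0.32 (PLXNB3, a plexin receptor) on the log2 scale, with NINJ1 at 0.20 and GJB7, a connexin with 2.50 and 2.50 CPM at 3 days, at -0.10.

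Of the 9 signalling members, 0 were called at 6 days against young, beside the same shares over all genes. RASGRP3, which loads Ras with GTP, had 2.73 and 3.14, 7.07 and 8.26, 2.18 and 2.75 and 2.89 and 2.89 CPM. MAP3K8, a kinase upstream of ERK, had 8.01 and 10.004, 18.9 and 16.5, 9.74 and 9.63 and 3.13 and 3.15 CPM, and was lower than young in MetaICM (log2FC of -1.53 ± 0.21 (SE), adjusted p = 0.000969). ADGRG1, an adhesion G-protein-coupled receptor, had 4.55 and 3.72 CPM in young, 9.09 and 9.10 at 3 days, 5.93 and 3.17 at 6 days and 19.6 and 18.1 in MetaICM. There it exceeded both young (log2FC of 2.14 ± 0.18 (SE), adjusted p = 8.18e-05) and ICM 3 days (log2FC of 1.11 ± 0.13 (SE), adjusted p = 1.15e-05). It was the only member called above ICM 3 days, but AHNAK2 (log2FC 0.56) and MX2 (0.55) also lay above it without being called. PRKCH (protein kinase C eta), GNG3 (a G-protein gamma subunit), RASD1 (a dexamethasone-induced Ras-like protein) and NOS1AP were at 2.36 to 3.25 CPM at 3 days and were not called against young at 6 days or in MetaICM. OR1J1 and OR1N1, 2 olfactory receptor genes 48431 bases apart on chromosome 9, had 3.82 and 5.21 and 2.07 and 2.64 CPM at 3 days against 0.511 and 0.496 and 0.0568 and 0 CPM in young. OR1J1 stayed above young at 6 days (log2FC of 2.11 ± 0.39 (SE), adjusted p = 0.00157), and OR1N1, with 1 count in young, had 34 counts at 6 days (ratio 26.2, 95% exact interval 4.39 to 1064). Their neighbours OR1J2 (0.170 and 0.165 CPM in young, 2.07 and 1.87 at 3 days) and OR1J4 (0.114 and 0.165 and 1.27 and 2.43) had like courses below the CPM threshold. PTGS1 lies on the strand opposite OR1J1 and OR1N1, which is the strand of OR1J2 and OR1J4. Counts ignored strand, so pairs of any transcript crossing this cluster cannot be told apart from those of its genes. PTGS1 had 294 and 256 CPM in young, 459 and 416 at 3 days, 480 and 364 at 6 days and 158 and 166 in MetaICM. It thus did not fall back at 6 days (log2FC of -0.026 against 3 days). In MetaICM it was below young (log2FC of -0.79 ± 0.12 (SE), adjusted p = 0.00169).

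Of the 6 lipid, steroid and retinoid genes, 2 were higher and 1, CYP2S1, lower at 6 days than in young, and 3 were not called. The shares over all genes were 13.3% higher and 17.2% lower, so nothing is read from a count this small. HSD11B1, which regenerates cortisol from cortisone, had 3.75 and 2.07 CPM in young, 26.0 and 26.5 CPM at 3 days, 15.2 and 17.1 CPM at 6 days and 1.91 and 1.29 CPM in MetaICM; it was the member that kept most of its rise (log2FC of 2.37 ± 0.25 (SE), adjusted p = 4.10e-05 at 6 days). ABCA7, a lipid transporter, was above young at 6 days too (log2FC of 0.79 ± 0.17 (SE), adjusted p = 0.00376). DHRS3, which reduces retinaldehyde to retinol, had 41.4 and 39.9, 87.5 and 92.1, 40.0 and 39.0 and 16.1 and 15.2 CPM. Its 6-day level did not pass the test against young (log2FC of -0.09 ± 0.12 (SE), adjusted p = 0.597), and MetaICM lay below both (log2FC of -1.41 ± 0.13 (SE), adjusted p = 0.000117 against young). ABCA13 gave the lowest MetaICM value of the set against young (log2FC of -3.24 ± 0.66 (SE), adjusted p = 0.00689) on few counts (0.966 and 0.827 CPM in young, 0.147 and 0.0432 in MetaICM). LPIN3, a phosphatidate phosphatase, was higher in MetaICM than in young (log2FC of 0.63 ± 0.14 (SE), adjusted p = 0.00863), with 22.3 and 19.3 and 33.7 and 32.3 CPM.

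The other members differed mostly in MetaICM. AHNAK2, a very large scaffold protein, had 50.4 and 49.0, 92.5 and 99.4, 48.0 and 55.2 and 137 and 134 CPM and was above young in MetaICM (log2FC of 1.42 ± 0.11 (SE), adjusted p = 5.16e-05). NPTX1 (neuronal pentraxin 1) had 17.4 and 11.6, 45.9 and 34.2, 15.7 and 13.8 and 33.5 and 38.3 CPM, again above young in MetaICM (log2FC of 1.26 ± 0.19 (SE), adjusted p = 0.00161). XIRP2, an actin-binding protein of muscle, had 1.31 and 2.07, 4.71 and 5.49, 1.20 and 1.16 and 0.392 and 0.561 CPM and was lower there (log2FC of -1.79 ± 0.43 (SE), adjusted p = 0.0135), as were MLF1 (log2FC of -1.41 ± 0.25 (SE), adjusted p = 0.00385), DIPK2A (log2FC of -0.91 ± 0.13 (SE), adjusted p = 0.00143) and APCDD1L (log2FC of -0.83 ± 0.14 (SE), adjusted p = 0.00341). CCDC24 was higher (log2FC of 0.73 ± 0.22 (SE), adjusted p = 0.0313). No call against young was made at 6 days or in MetaICM for ATRNL1, PGBD5, NDRG4 and DCBLD1, which had 2.12 and 2.92, 4.33 and 4.79, 26.8 and 27.0 and 78.8 and 77.4 CPM at 3 days. NEFM, a neurofilament subunit, had 2.12 and 2.29 CPM at 3 days and 1.31 and 0.794 CPM at 6 days (log2FC of 1.31 ± 0.49 (SE), adjusted p = 0.0543 against young). That result depended on the setting. NEFM was called higher with library totals, all 8 libraries in one fit, replicate number in the fit and thinned libraries.

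The median exon length of the selected genes was 3582 bases and their median span 27813 bases, beside 3737 and 29952 over the 12719 genes with at least 2 CPM in both 3-day libraries. Genes other than protein-coding made up 14.3% of the set and 8.65% of the 12719, and single-exon genes 9.52% and 4.65%. Median exon GC content was 52.1% over the members and 48.5% over all genes placed at 1 locus, and that of the 250 bases before the start 64.4% and 58.8%. Of the other motifs sought in these windows, CRE (TGACGTCA) was before 1.59% of members, 1.82% of all starts and 2.70% of those of genes at 2 CPM or more. In the same order the shares were 1.59%, 0.660% and 0.438% for the ATF4 site (TGATGCAA), and 4.76%, 5.36% and 4.04% for the heat shock element (GAANNTTC). They were 11.1%, 10.8% and 6.44% for the TATA box (TATAAA), and 11.1%, 11.2% and 11.9% for the NRF2 site (TGACNNNGC). The AhR site (GCGTG) had 28.6%, 34.1% and 43.5%, CCAAT 36.5%, 32.8% and 33.5%, and the CArG box 1.59%, 1.15% and 1.12%. ACGTG, the core of the hypoxia response element, added after the other motifs and contained in every E-box, was before 23.8%, 19.0% and 22.3%. Matches were exact and on both strands. In the set, 15 genes share exon bases with another gene, and 9 are adjacent to or overlap another member.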

How the data were processed

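Factory RNA-Seq, which captures nascent RNA, was done on 8 libraries. The sample labels describe poly(A) selection of total RNA. Per the file headers and labels, the authors aligned reads to GRCh37 with STAR (2.6.0c) and deposited raw counts of read pairs on RefSeq exons from featureCounts (1.6.3), on both strands together, without normalization. Library totals ranged from 12095123 to 23166405. The members and gene lists were chosen with earlier results of these data known.

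From these counts, CPM per library gave the 63 genes. Each comparison used 4 libraries in edgeR (4.0.16, R 4.3.3): TMM, filterByExpr at a minimum count of 10, the quasi-likelihood test and Benjamini-Hochberg adjustment over all genes tested. A gene was called at an adjusted p under 0.05 and an absolute log2FC over 0.6. The 2 comparisons with ICM 3 days used for list genes outside the set were added after seeing the data. Members, which fall at 6 days by choice, are not in these list counts, so the counts partly follow from the rule. The fits were also run on simulated data, whose outcome is not given here, so no support is drawn from it. Of 690 list entries in 28 lists, 687 were found in the files. Members were in 9 of these lists, and 19 held none.

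Genes named by the fixed rule are the 15 with the largest margin at 50 or more counts in each 3-day library, the 12 with the highest 3-day CPM, those in a gene list, up to 8 called genes per direction and comparison, and the 3 nearest the threshold on either side; all others named were chosen after their values were seen. Motifs were exact matches in the 250 bases before each gene's outermost start, read from GRCh37 for all 63 members; of 841 member introns, 94.5% begin with GT and end with AG in that sequence. The window of 1 gene is not reported here. Intervals cover counting error only.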

Additional observations from a re-analysis of the deposited data

How the results depend on the processing

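The choice of the genes depended on its thresholds: a margin of 1.3 times gave 170 genes (all 63 among them), 2 times gave 14, a CPM of at least 10 gave 35, and leaving out 1 of the 6 libraries of the rule gave 83 to 159, since a rule with fewer libraries is easier to pass. TMM-scaled CPM gave 53, all of them members. ABCA7, ADGRG1, CCDC24, DCBLD1, HSD11B1, MIR2355, PER1, RASD1, SERPINE2 and SNORD156 were lost with it, so their membership depends on the scaling. Thinning all libraries to the smallest gave 63, of which 52 were shared. At 6 days against young, 3 genes were lower with DESeq2 and 3 at an adjusted p under 0.01, against 6; leaving out 1 library gave 3 to 7 lower genes and a median log2FC of 0.052 to 0.27. For MetaICM against young, leaving out 1 library gave 4 to 7 higher genes and a median of -0.20 to -0.0042. For MetaICM against ICM 3 days it gave 1 to 3 higher genes and a median of -1.70 to -1.62, while library totals gave -1.73 and a filter of 10 counts in every library, which drops the genes lowest in MetaICM, -1.54. The cause of the other changes was not tested. The other counts stayed within 1.5 times, the other medians within 1 SD, and no called gene changed sign.

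Replicate numbers were not taken to pair the libraries, as same-numbered deviations correlated with r of -0.179 to 0.29 between groups. With the replicate block, 13 genes were higher and 6 lower at 6 days against young, 8 and 17 in MetaICM against young, and 1 and 54 against ICM 3 days. At 2 libraries a group, the 12 genes with a lower 3-day count under 50 are known least precisely. No group had 4 libraries, so none was examined for a library far from the rest.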
